A study of Zea mays with 24 samples.

Results

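A pilot Affymetrix maize array carried, for 1246 sequences or parts of them, a pair of probe sets of opposite orientation, named alike except for the letters A1 and S1. A probe set is a group of short oligonucleotides whose combined fluorescence gives 1 signal per array. In 31 of the 1246 pairs (2.49%) both orientations had a mean signal of at least 50 over the 24 arrays, and these 31 pairs, which come from 28 source sequences, are described here. The members were therefore chosen by their measured mean signal, which takes no account of line. The level of 50 is about the median signal of an array, since array medians ran from 46.7 to 62.8.

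In plants as in animals, some loci are transcribed from both DNA strands, and the RNA of the second strand is called a natural antisense transcript. Such transcripts can overlap a coding gene, can come from a neighbouring gene on the opposite strand, and can lower or stabilise the RNA they pair with. In the naming of Affymetrix plant arrays, S stands for sense and A for antisense orientation of the probe set relative to the source sequence. The strand of the source sequences in the genome is not given in the sources used here, so A1 and S1 name the 2 orientations only and not a gene and its antisense RNA. A signal in 1 orientation does not by itself show a transcript of that strand.

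Leaves of 4 inbreds of maize, namely B73, Mo17, W23 and Wf9, were compared with no treatment. The maize reference genome was built from B73, and the other inbreds are likewise long established. Per the labels, the third, the fourth and the fifth leaf of several plants raised in a greenhouse were pooled for each RNA, growth to extraction was carried out 3 times per line, and each of the 12 RNAs was labelled as biotinylated cRNA and put on 2 arrays. P-values measure the spread between these 3 pooled RNAs of a line. Of the leaf marker genes matched on the array, 12 of 13 probe sets were above background, with a median signal of 5572. None of 3 probe sets for seed storage proteins and none of 4 for pollen genes were above background, while both probe sets for root genes were slightly above it, at 19.1 and 35.5. The background level, a signal of 16.7, is the level under which 99 percent of the values of 44 unspiked controls fell.

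Some libraries stood apart. Array 1 of B73 replicate 3 held all 213 exact zeros of the table. Its log2 values differed from those of its technical partner with an SD of 0.869 over bright probe sets, against 0.0837 to 0.206 in the other 11 technical pairs. W23 replicates 2 and 3 differed by an SD of 0.183 to 0.204, close to their own technical SDs of 0.124 and 0.125, whereas other biological replicates of a line differed by 0.400 to 0.871. They were kept as separate samples. Counts that changed by more than 1.5 times are also given with the pair counted as 1 replicate, or with the array of B73 replicate 3 left out. The p-values of contrasts between 2 lines in single members come only from the fit with no RNA or array left out.

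Signal in both orientations was the exception on this array. The A1 orientation reached 50 in 287 pairs, of which 10.8% also reached it in S1, and the S1 orientation reached 50 in 131 pairs, of which 23.7% also reached it in A1. In 859 pairs (68.9%) neither did. Of the 356 pairs bright in 1 orientation only, the dim one was at or below background in 283 (79.5%), with a median dim signal of 9.92. The 31 members differ from these by their selection, and the plot of both orientations shows where the selection lies.

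**Figure D1:**
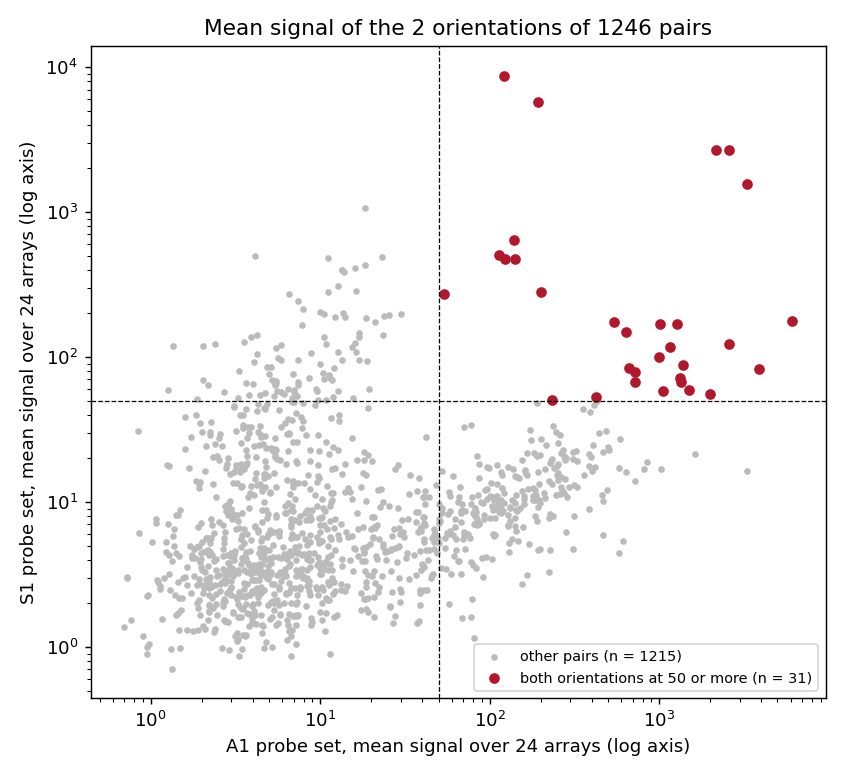
Mean signal of the A1 probe set (x axis) against the S1 probe set (y axis) over 24 arrays, both on log axes, for the 1246 pairs, with dashed lines at 50. The 31 members (red) fill the upper right corner, and the other pairs mostly have 1 or both orientations below 50.

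The edge of the selection ran through pairs of similar signal. Just inside were Zm1Affx.725.1_at, with a mean of 232.2 in A1 and 50.9 in S1, and Zm1Affx.1037.1_at, with 423.5 in A1 and 52.9 in S1. Just outside were Zm1Affx.629.1_at, with 432.5 in A1 and 49.9 in S1, and Zm1Affx.219.1_at, with 191.8 in A1 and 48.4 in S1. In Zm1Affx.629.1_at the A1 signals were 503.4, 584.6 and 554.8 in B73, 217.9, 195.5 and 328.0 in Mo17, 600.1, 510.4 and 501.1 in W23, and 449.4, 377.5 and 367.2 in Wf9. In S1 the signals were 69.8, 48 and 47.6 in B73, 34.4, 30.8 and 49 in Mo17, 71.8, 64.5 and 57.1 in W23, and 50.1, 35.6 and 40 in Wf9, and its A1 signal in Mo17 lay below all other lines without overlap. In Zm1Affx.219.1_at the A1 signals were 135.3, 156.3 and 140.6 in B73, 164.7, 185.8 and 157.4 in Mo17, 154.3, 123.2 and 134.1 in W23, and 321.6, 354.1 and 274.6 in Wf9. The S1 probe set gave 82.2, 47.9 and 27.8 in B73, 62.2, 61.7 and 41.8 in Mo17, 47.6, 49.2 and 33.5 in W23, and 39.5, 52.2 and 35.4 in Wf9, and its A1 signal was highest in the 3 Wf9 RNAs. The SDs between replicates of these S1 signals, 7.35 or more in each line, exceeded their distance from 50.

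Once chosen, nearly all members were measured above background throughout. In 29 of 31 every array was above background in both orientations, and in the other two a single array was not, for the S1 probe sets of Zm1Affx.1392.1_at in B73 and of Zm1Affx.725.1_at in Wf9. The dimmer orientation of a member ranked between the 46.8th and the 97.1th percentile of all probe sets, with a median at the 59.8th. Probes of different sequence bind with different strength, so the ratio of the orientations is a ratio of signals and not of RNA molecules.

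The A1 orientation was the brighter one in 21 members, by 2.09 to 47.3 times with a median of 9.96, and the S1 orientation in 10, by 1.04 to 71.3 times with a median of 4.16. The orientations were at least 10-fold apart in 12 members, between 2-fold and 10-fold in 16, and under 2-fold in 3. The brighter orientation was the same in all 4 lines in 30 of 31 members and in all 12 RNAs in 25. Most members therefore had a fixed strong and a fixed weak orientation across the lines, as the plot of ratios by line shows. These ratios describe the chosen pairs, and no test was made of them.

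**Figure D2:**
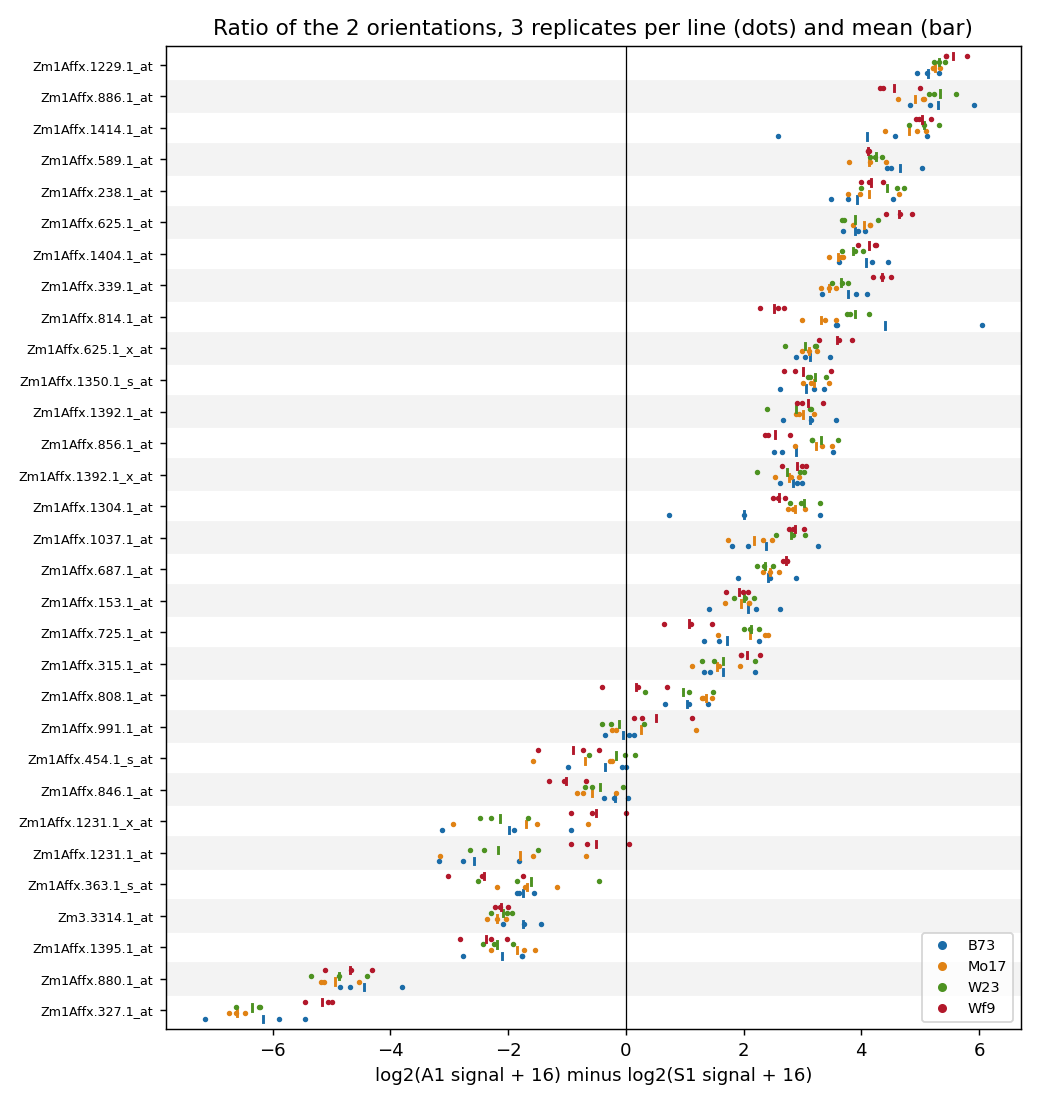
Log2 ratio of the A1 to the S1 signal (x axis, pseudocount 16) for each of the 31 members (y axis), with 1 dot per RNA and a bar at the mean of the 3 RNAs of a line. Members spread from mean ratios of -6.07 to 5.32, and for 30 of 31 the 4 line means lie on the same side of 0.

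The highest mean ratios belonged to Zm1Affx.1229.1_at, Zm1Affx.886.1_at and Zm1Affx.1414.1_at. Zm1Affx.1229.1_at had A1 signals of 3904, 3930 and 2613 in the B73 RNAs, 4759, 4237 and 3030 in Mo17, 4515, 3083 and 3934 in W23, and 4163, 5074 and 3310 in Wf9. Its S1 signals were 111.5, 98.1 and 50.7 in B73, 112.8, 89.4 and 65.7 in Mo17, 89.6, 66.2 and 82.8 in W23, and 80.9, 76.0 and 60.4 in Wf9. All lines overlapped in both orientations, and the mean log2 ratio was 5.32. The 3 Wf9 ratios lay above all others, but the lowest of them, 5.431, was close to the highest of W23, 5.426. The ratio did not pass (limma F-test, adjusted p = 0.517). Zm1Affx.886.1_at was the brightest A1 member, with 5955, 7062 and 4590 in B73, 6920, 6520 and 5696 in Mo17, 7794, 5925 and 6492 in W23, and 5787, 5859 and 4643 in Wf9. Its S1 signal was 193.3, 101.2 and 112.3 in B73, 263.7, 182.1 and 155.3 in Mo17, 192.6, 151.8 and 117.4 in W23, and 166.5, 269.1 and 220.4 in Wf9. It was one of few members whose S1 mean was highest in Wf9, but with overlapping replicates and an adjusted p of 0.238 for the level (limma F-test over the 4 lines, Benjamini-Hochberg over 8346 probe sets).

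Zm1Affx.1414.1_at was the only member with a gene symbol in the annotation used here, LOC542560, whose synonyms in the gene table include pOMT1 and ZmpOMT1. O-methyltransferases add methyl groups to the hydroxyl groups of phenolic and other small molecules. Its A1 signal was 1581, 2488 and 544.2 in B73, 1160, 2285 and 2595 in Mo17, 3455, 2521 and 2145 in W23, and 1666, 1973 and 1568 in Wf9. Its S1 signal was 50.2, 56.1 and 100.8 in B73, 39.8, 58.7 and 60.0 in Mo17, 70.7, 60.2 and 60.9 in W23, and 37.4, 38.6 and 34.9 in Wf9. The 3 Wf9 RNAs had the lowest S1 signals of the 12, the F-test missed the threshold with an adjusted p of 0.0728, and the A1 orientation gave 0.351 (limma, Benjamini-Hochberg). The S1 contrast of W23 minus Wf9 passed, with a log2 difference of 0.59 ± 0.18 SE (limma contrast, adjusted p = 0.0405). The high S1 value of B73 replicate 3 came from its doubtful array, where S1 was 172.9 against 28.6 on the partner array, whereas its A1 value was low on both, at 435.2 and 653.3. In the s_at pair of the same sequence A1 was also the strong orientation, with a mean signal of 814.4 for the A1 and 16.9 for the S1 probe set. A further A1 probe set of the gene, from another source sequence, had a mean of 668.3, which alone does not show the stronger orientation. The suffix s_at marks probe sets whose probes all match more than 1 sequence.

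The lowest mean ratios, with S1 far above A1, belonged to Zm1Affx.327.1_at, Zm1Affx.880.1_at and Zm1Affx.1395.1_at. Zm1Affx.327.1_at had the brightest S1 probe set, at 8208, 9854 and 6392 in B73, 11340, 9784 and 8457 in Mo17, 10440, 8293 and 9344 in W23, and 8255, 8303 and 6152 in Wf9. Its A1 signal was 172.9, 53.5 and 94.2 in B73, 101.4, 76.4 and 80.2 in Mo17, 125.8, 94.8 and 79.8 in W23, and 174.3, 236 and 180.6 in Wf9. All 3 Wf9 values of A1 lay above all others, whereas the S1 values of Wf9 overlapped with the other lines and the S1 level did not pass (limma F-test, adjusted p = 0.407). The A1 level was higher in Wf9 than in Mo17 by a log2 difference of 1.07 ± 0.30 SE (limma contrast, adjusted p = 0.0319), the F-test over the lines gave 0.0561 for A1, and the ratio gave 0.263. Zm1Affx.880.1_at had S1 signals of 3513, 5834 and 3593 in B73, 8072, 7366 and 4504 in Mo17, 7978, 5539 and 6941 in W23, and 6315, 5472 and 3517 in Wf9. Its A1 signals were 237.2, 186.2 and 123.8 in B73, 224.8, 188.1 and 180.3 in Mo17, 258.2, 246.5 and 155.3 in W23, and 168.1, 201.1 and 162.3 in Wf9. The lines overlapped in both orientations, with adjusted p of 0.236 for S1 and 0.741 for A1 (limma F-test). Zm1Affx.1395.1_at had S1 signals of 530.2, 744.8 and 700.5 in B73, 605.6, 869.3 and 585.0 in Mo17, 732.5, 530.8 and 568.3 in W23, and 580.4, 714.7 and 492.0 in Wf9. Its A1 signals were 144.5, 209.8 and 89.7 in B73, 113.7, 289.8 and 164.7 in Mo17, 122.5, 101.0 and 138.4 in W23, and 131.1, 88.8 and 88.7 in Wf9. The lines overlapped in both orientations, and the adjusted p was 0.852 for S1 and 0.366 for A1 (limma F-test).

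The most common pattern among the members was a level that was lowest in Wf9, in many of them in both orientations together. The A1 level was lowest in Wf9 in 19 of 31 members, the S1 level in 24, and both in 16. Of the 62 probe sets of the members 43 (69.4%) were lowest in Wf9, against 20.2% of the 4465 non-control probe sets with a mean signal of at least 50. Some dim S1 probe sets reached that mean only through other lines, such as those of Zm1Affx.625.1_at and Zm1Affx.725.1_at, at 27.6 and 33.0 in Wf9. The same held for B73 in Zm1Affx.1037.1_at, at 30.4. The count of lowest lines was not repeated with a minimum of 50 in every RNA, so it describes the chosen pairs only. Counted once per source sequence, both orientations were lowest in Wf9 in 14 of 28. In bulk leaf RNA, fewer cells of a type and less RNA per cell cannot be told apart. Whether the probes match the sequences of every line equally was not tested, so a lower signal is not by itself less RNA.

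By limma contrasts with Benjamini-Hochberg adjustment over 8346 probe sets, 12 of the 62 member probe sets were higher in B73 than in Wf9, a share of 19.4% against 7.6% of all probe sets and 10.1% of those at 50 or more, and 1 was lower (6.87% of all). In Mo17 it was 19 higher (30.6%, against 8.18% and 10.2%) and 2 lower (8.12% of all). In W23 it was 21 higher (33.9%, against 7.44% and 9.5%) and 1 lower (7.81% of all). The 3 contrasts share the Wf9 RNAs, so they are not separate evidence. The median log2 difference over the 62 probe sets was 0.28 for B73, 0.56 for Mo17 and 0.58 for W23, against -0.11, -0.01 and -0.06 over the probe sets at 50 or more. Between the other 3 lines few member probe sets differed, namely 1 between B73 and Mo17 (14.7% of all probe sets), 2 between B73 and W23 (16%) and 1 between Mo17 and W23 (13.9%). Counted once per sequence, 11, 14 and 16 of 56 probe sets were higher than in Wf9 in B73, Mo17 and W23.

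The shift was not of the same size in each RNA. The median deviation of the A1 probe sets from their mean over 12 RNAs, in log2 units, was -0.20, -0.51 and -0.52 in the 3 Wf9 RNAs, and that of the S1 probe sets was -0.18, -0.33 and -0.56. In W23 the medians were 0.19, 0.16 and 0.30 for A1 and 0.17, 0.15 and 0.23 for S1. B73 and Mo17 had values on both sides of 0, from -0.15 to 0.49 for A1 and from -0.43 to 0.33 for S1. Over all probe sets at 50 or more, every RNA lay between -0.07 and 0.07, and over the A1 probe sets of the 256 pairs bright in A1 only the Wf9 RNAs had medians of 0.14, 0.08 and 0.09. Wf9 replicate 1 was thus nearer to the other lines than Wf9 replicates 2 and 3. The counts fell when certain single RNAs were left out, both of Wf9 and of other lines. Without Wf9 replicate 2 the probe sets higher than in Wf9 numbered 2, 5 and 9 for B73, Mo17 and W23, and without Wf9 replicate 3 they numbered 2, 5 and 10. The count against B73 was 2 without B73 replicate 2, that against Mo17 was 4 without Mo17 replicate 2, and that against W23 was 10 without W23 replicate 2, 5 without W23 replicate 3 and 9 with W23 replicates 2 and 3 counted as 1.

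**Figure D3:**
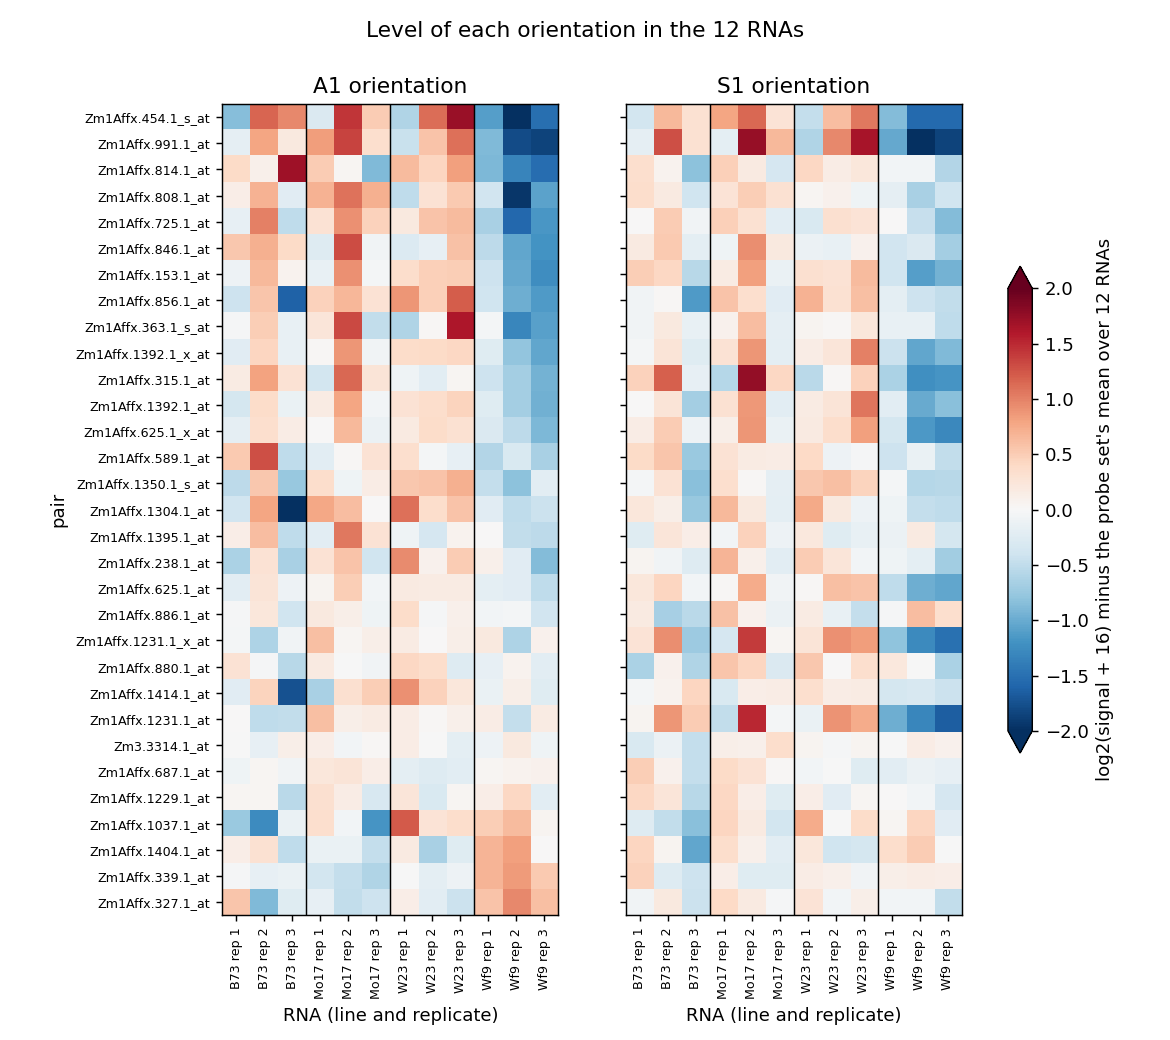
Level of the A1 (left) and S1 (right) probe set of each member (rows) in the 12 RNAs (columns), as log2(signal + 16) minus the probe set's mean over the RNAs, coloured from -2 (blue) to 2 (red), with rows ordered by the A1 level in Wf9. The upper rows are blue in the 3 Wf9 columns of both panels, most strongly in replicates 2 and 3, and the lowest rows are red in most of these columns in A1.

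The widest differences of a level between lines were the A1 level of Zm1Affx.454.1_s_at and the S1 level of Zm1Affx.991.1_at, and in both members the orientations were almost equally bright. Zm1Affx.991.1_at had A1 signals of 1839, 3617 and 2502 in B73, 3733, 5378 and 2637 in Mo17, 1533, 3096 and 4490 in W23, and 1120, 590.5 and 567.9 in Wf9. In S1 the signals were 1674, 4595 and 2566 in B73, 1649, 6347 and 2972 in Mo17, 1240, 3685 and 5959 in W23, and 918.3, 262.5 and 527.7 in Wf9. All 3 Wf9 RNAs lay below the other 9 in both orientations. Compared with Mo17, the level in Wf9 was lower by 2.35 ± 0.42 SE in A1 (adjusted p = 0.00198) and by 2.61 ± 0.65 in S1 (adjusted p = 0.0157, limma contrasts, log2 scale). Within W23 and B73 both orientations ordered the replicates alike, and within Mo17 and Wf9 they did not.

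Zm1Affx.454.1_s_at behaved similarly, with A1 signals of 870.2, 3534 and 3077 in B73, 1297, 4286 and 2237 in Mo17, 1034, 3407 and 5221 in W23, and 728.8, 257.8 and 563.9 in Wf9. The third B73 value rests on 1 array, since the other gave an exact zero. The S1 probe set gave 1724, 3506 and 2799 in B73, 3861, 5018 and 2695 in Mo17, 1600, 3449 and 4662 in W23, and 1219, 750.2 and 752.2 in Wf9. The Wf9 RNAs were again below all others in both orientations, with adjusted p of 0.0414 for A1 and 0.00671 for S1 (limma F-test). The other member with less than 2-fold between its orientations, Zm1Affx.846.1_at, had A1 signals of 263.6, 300 and 236.4 in B73, 145.3, 457.9 and 166.7 in Mo17, 143.2, 155.6 and 272.9 in W23, and 117.9, 77.7 and 68.6 in Wf9. Its S1 signals were 304.2, 391.2 and 237.8 in B73, 250.3, 518.8 and 306.4 in Mo17, 241.9, 238.7 and 281.9 in W23, and 199.2, 214.1 and 160.7 in Wf9. Here too the 3 Wf9 values were the lowest in both orientations, but the F-test passed in A1 only (adjusted p = 0.0373 against 0.116 in S1).

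By the F-test over the 4 lines, the A1 level differed in 13 members (21.3% of the A1 probe sets of all pairs passed) and the S1 level in 8 (14.8%), which is 21 of 62 probe sets (33.9%). All non-control probe sets gave 30.5%, and those at 50 or more 38.7%, so the share of member probe sets that passed was near these backgrounds. Against the same orientation of all pairs, 13 and 8 of 31 were larger shares than 21.3% and 14.8%. Most of those pairs were under 50 in both orientations. Both orientations passed in 5 members, 1 of them in 11 and neither in 15. The brighter orientation passed in 14 of 31 (45.2%) and the dimmer in 7 (22.6%). The same line was highest in both orientations in 21 members and lowest in 18. The A1 count was 5 without Wf9 replicate 2, 6 without Wf9 replicate 3, 7 without W23 replicate 2 or 3, and 8 without W23 replicate 1 or with W23 replicates 2 and 3 counted as 1 (24.6% of all probe sets). The S1 count was 2 without Wf9 replicate 2 or 3, and 13 without B73 replicate 3 or without its doubtful array alone (33.1% of all probe sets). The count of members that passed in both was 0 without Wf9 replicate 2 or 3, 1 without W23 replicate 2 or 3 or with these counted as 1, 2 without W23 replicate 1, 8 without B73 replicate 3 and 10 without its doubtful array alone.

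The 5 members that passed in both orientations were Zm1Affx.991.1_at, Zm1Affx.454.1_s_at, Zm1Affx.153.1_at, Zm1Affx.625.1_x_at and Zm1Affx.1392.1_x_at, which are named here after their values were seen. Of these, Zm1Affx.991.1_at and Zm1Affx.454.1_s_at may not be independent, since the A1 signals of the first resembled the S1 signals of the second. In Mo17, for example, they were 3733, 5378 and 2637 against 3861, 5018 and 2695. Whether their probes match the same sequences was not tested, and they stand as separate sequences in all counts. In Zm1Affx.153.1_at the A1 signal was 547.5, 921.9 and 614.9 in B73, 527.1, 1119 and 567.6 in Mo17, 748.5, 816.8 and 825.8 in W23, and 436.2, 279.7 and 237.2 in Wf9. Its S1 signal was 197.3, 186.4 and 96.2 in B73, 157.2, 248.9 and 122.9 in Mo17, 172.8, 168.6 and 218.6 in W23, and 97.8, 54.7 and 63.9 in Wf9. The Wf9 values were the 3 lowest in A1, and in S1 they overlapped only with B73 replicate 3. The fall from W23 was 1.33 ± 0.30 SE in A1 and 1.24 ± 0.32 in S1 on the log2 scale (limma, adjusted p = 0.00977 and 0.0186), so that the ratio had almost the same mean in all lines, between 1.92 and 2.08.

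Zm1Affx.625.1_x_at fell in Wf9 to 756.2 ± 159 in A1 from between 1209 and 1359 in the other lines, and to 50.7 ± 24.97 in S1 from between 125.4 and 153.2 (SD, n = 3). Zm1Affx.1392.1_x_at fell to 395.2 ± 120 in A1 from between 651.2 and 826.4, and to 38.4 ± 12.3 in S1 from between 77.1 and 115.2. For both, adjusted p of the F-test was between 0.0167 and 0.0404 (limma). The suffix x_at marks probe sets of which some probes also match other sequences. None of the 5 members had a ratio that passed its own test.

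Pairs with the suffix at and pairs with x_at both entered from 3 source sequences, and these are not independent. For Zm1Affx.1392.1 the at pair gave nearly the same line means as the x_at pair, with 449.8 ± 118 in A1 and 39.7 ± 16.5 in S1 in Wf9. The A1 level of this at pair passed the F-test and its S1 level did not (limma, adjusted p = 0.0326 and 0.0739). For Zm1Affx.625.1 the at pair had an S1 level of 27.6 ± 9.11 in Wf9 and between 74.0 and 87.7 elsewhere, and an A1 level of 1063 ± 122.5 in Wf9 and between 1316 and 1497 elsewhere (SD, n = 3). Its S1 level passed the F-test and its A1 level did not (limma, adjusted p = 0.00933 and 0.158), and the ratio missed it with an adjusted p of 0.0576. A further S1 probe set of this sequence, with the suffix s_at, had a mean signal of 280.4 and also differed among lines (adjusted p = 0.00852). The x_at pair of the sequence passed in both levels, and its ratio did not pass (0.262).

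The ratio of the orientations was then tested among the 4 lines. It differed in 4 of 31 members (12.9%) against 250 of all 1246 pairs (20.1%), by limma's moderated F-test on log2(A1 + 16) minus log2(S1 + 16) with Benjamini-Hochberg adjustment over all pairs. The members thus passed no more often than pairs at large. Pairs bright in A1 only passed in 37.1%, those bright in S1 only in 26% and those bright in neither in 14.6%. With an unadjusted p under 0.05 there were 9 members. The 4 that passed were Zm1Affx.339.1_at, Zm1Affx.725.1_at, Zm1Affx.808.1_at and Zm1Affx.1231.1_at, and in each of them exactly 1 orientation passed the test of its level. In all 4 Wf9 was the line with either the highest or the lowest ratio.

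**Figure D4:**
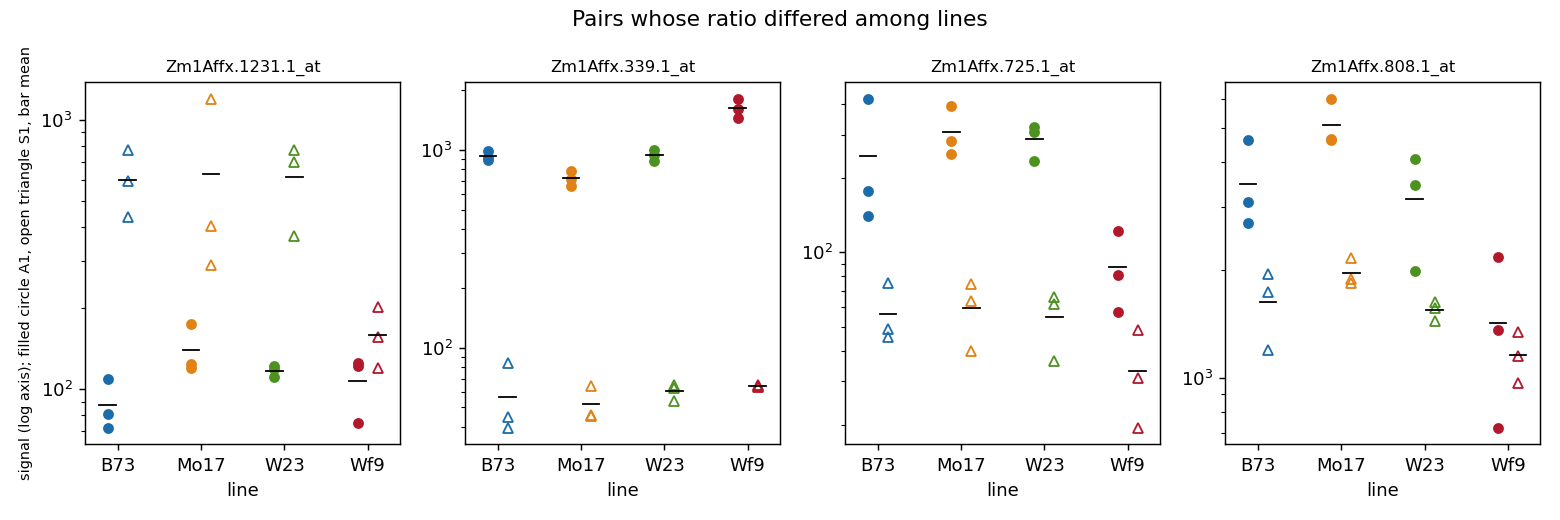
Signal (y axis, log scale, a different range in each panel) of the A1 (filled circles) and S1 (open triangles) probe sets in the 3 RNAs of each line (x axis) for the 4 members whose ratio differed among lines, with bars at the mean. In Wf9 the S1 signal of Zm1Affx.1231.1_at is low, the A1 signal of Zm1Affx.339.1_at is high, and the A1 signals of Zm1Affx.725.1_at and Zm1Affx.808.1_at are low.

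In Zm1Affx.339.1_at the A1 orientation was high in Wf9. Its A1 signal was 990.8, 892 and 925.5 in B73, 782.3, 717.5 and 655.6 in Mo17, 1003, 877.7 and 939.2 in W23, and 1610, 1816 and 1458 in Wf9. Its S1 signal was 84.3, 44.8 and 39.5 in B73, 64.2, 45.9 and 45.3 in Mo17, 65.2, 62.7 and 53.7 in W23, and 63.2, 65.1 and 64.2 in Wf9. The 3 Wf9 RNAs were above all others in A1 and within the range of the other lines in S1. The A1 level differed among lines (limma F-test, adjusted p = 0.000319) and the S1 level did not pass (0.740). The log2 ratio averaged 4.36 ± 0.15 in Wf9, 3.78 ± 0.40 in B73, 3.65 ± 0.14 in W23 and 3.44 ± 0.13 in Mo17 (SD, n = 3), and all 3 Wf9 values were above the other 9. The difference between Wf9 and Mo17 was 0.91 ± 0.21 SE, and the F-test of the ratio gave an adjusted p of 0.0277 (limma). Another A1 probe set of the sequence, with the suffix s_at, had a mean of 4347 and did not pass (adjusted p = 0.264).

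In Zm1Affx.725.1_at and Zm1Affx.808.1_at the A1 orientation was low in Wf9 and S1 fell less. Zm1Affx.725.1_at had A1 signals of 177.2, 419.1 and 140.8 in B73, 250.5, 392.1 and 283 in Mo17, 233.7, 306.1 and 322.6 in W23, and 122.6, 57.2 and 81.3 in Wf9. In S1 the signals were 48.9, 75.3 and 45.2 in B73, 74.5, 63.5 and 39.7 in Mo17, 36.4, 66.0 and 62.0 in W23, and 48.7, 31.0 and 19.5 in Wf9. The Wf9 RNAs were the 3 lowest in A1 and overlapped with the other lines in S1. The mean log2 ratio was 2.12 in W23 and 1.07 in Wf9, a difference of 1.05 ± 0.28 SE, with an adjusted p of 0.0351 for the F-test (limma). This member lies at the edge of the selection, and its S1 signal was partly near background in Wf9.

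Zm1Affx.808.1_at was bright in both orientations, with A1 signals of 3103, 4614 and 2700 in B73, 4610, 6021 and 4637 in Mo17, 1984, 3445 and 4073 in W23, and 2177, 723.4 and 1354 in Wf9. The S1 probe set gave 1950, 1739 and 1197 in B73, 1842, 2164 and 1883 in Mo17, 1568, 1623 and 1441 in W23, and 1343, 964.5 and 1152 in Wf9. Mo17 and Wf9 did not overlap in either orientation, while W23 replicate 1 lay within the Wf9 range in A1. Between Mo17 and Wf9 the level fell by 1.96 ± 0.39 SE in A1 and by 0.77 ± 0.20 in S1 (limma, adjusted p = 0.00383 and 0.0210). The log2 ratio went from 1.36 ± 0.10 in Mo17 to 0.16 ± 0.55 in Wf9 (SD, n = 3), a difference of 1.20 ± 0.30 SE, and the F-test gave an adjusted p of 0.0477. In Wf9 replicate 2 the S1 signal exceeded the A1 signal.

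In Zm1Affx.1231.1_at the change lay in the brighter S1 orientation. Its S1 signal was 434.8, 772.6 and 591.8 in B73, 288.4, 1200 and 403.6 in Mo17, 371.9, 776.6 and 698.6 in W23, and 202.9, 156.1 and 120.1 in Wf9. Its A1 signal was 109.3, 72.0 and 80.8 in B73, 174.6, 120.2 and 124.5 in Mo17, 122.3, 111.2 and 118.8 in W23, and 122.2, 74.7 and 125.2 in Wf9. The Wf9 RNAs were the 3 lowest in S1 and lay within the range of the other lines in A1. The log2 ratio was -0.51 ± 0.51 in Wf9, -2.58 ± 0.69 in B73, -2.18 ± 0.61 in W23 and -1.80 ± 1.26 in Mo17 (SD, n = 3). The difference of 2.07 ± 0.53 SE between Wf9 and B73 was the widest among the members, with an adjusted p of 0.0495 for the F-test (limma). The overlapping x_at pair gave -0.50 in Wf9, -1.98 in B73, -2.14 in W23 and -1.69 in Mo17, and its F-test did not pass (adjusted p = 0.144). That pair had S1 signals of 471.6, 754.5 and 325.4 in B73, 305.1, 1052 and 398.9 in Mo17, 466, 745.3 and 702.4 in W23, and 216.9, 151.6 and 128.2 in Wf9. Its A1 signals were 115.5, 72.6 and 113.7 in B73, 189.4, 123.3 and 130.6 in Mo17, 136.2, 120.7 and 131.9 in W23, and 138.4, 72.1 and 128.4 in Wf9. On the doubtful array of B73 replicate 3 its S1 signal was 87.0 against 563.8 on the partner, while in the at pair the values were 631.7 and 551.9. The A1 signal of the at pair was 43.3 on that array against 118.2 on the partner, and that of the x_at pair 99.3 against 128. Without that array the difference of the at pair between the highest and the lowest line was 1.84 and its call was lost (limma F-test, adjusted p = 0.066), whereas the x_at pair passed (adjusted p = 0.0381).

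All 4 ratio calls were close to the threshold and depended on single libraries. The number of members that passed was 0 without Mo17 replicate 3, without W23 replicate 2 or without Wf9 replicate 2. It was 1 without Wf9 replicate 3 or with W23 replicates 2 and 3 counted as 1 (16.5% of all pairs), 2 without Mo17 replicate 1, Mo17 replicate 2, W23 replicate 3 or Wf9 replicate 1, 6 without the doubtful array of B73 replicate 3 (21.1% of all pairs) and 7 without both arrays of that RNA. Of 23 alternative settings, the call was lost in 8 for Zm1Affx.339.1_at, 10 for Zm1Affx.725.1_at, 13 for Zm1Affx.808.1_at and 14 for Zm1Affx.1231.1_at, and the sign of the difference was the same in all 23 for each.

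By pair of lines, no member ratio passed between B73 and Mo17 (10.8% of all pairs), B73 and W23 (10.8%) or Mo17 and W23 (9.31%), by limma contrasts adjusted over 1246 pairs. Against Wf9 it was 4 in B73 (9.39% of all pairs), 3 in Mo17 (9.95%) and 3 in W23 (10.8%), and these contrasts share the Wf9 RNAs. The calls came from 7 members, the 4 above and Zm1Affx.625.1_at, Zm1Affx.814.1_at and Zm1Affx.846.1_at, whose F-tests missed the threshold. Shares of 3 or 4 in 31 are near the background of all pairs. The B73 count was 0 without Wf9 replicate 3, 1 without Wf9 replicate 2 and 2 without B73 replicate 1 or Wf9 replicate 1. The Mo17 count was 0 without Wf9 replicate 2, 1 without Mo17 replicate 2 and 5 without B73 replicate 2 or 3. The W23 count was 0 without W23 replicate 2, W23 replicate 3, Wf9 replicate 1 or Wf9 replicate 2, 1 without Mo17 replicate 3 or Wf9 replicate 3, 5 without B73 replicate 2 and 6 without B73 replicate 3. Between B73 and Mo17 it was 1 without B73 replicate 1 and 2 without B73 replicate 2, and between B73 and W23 it was 1 without either B73 replicate 2 or B73 replicate 3.

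Zm1Affx.814.1_at, named after its values were seen, had A1 signals of 1500, 1228 and 3759 in B73, 1640, 1175 and 615.8 in Mo17, 1780, 1550 and 2028 in W23, and 608.9, 451.4 and 387.4 in Wf9. Its S1 signals were 110, 89.2 and 47.0 in B73, 123.1, 97.7 and 63.3 in Mo17, 117.2, 94.6 and 101.2 in W23, and 80.4, 80.4 and 50.8 in Wf9. The Wf9 RNAs were lowest in A1 without overlap and overlapped with B73 and Mo17 in S1. The log2 ratio was 2.52 ± 0.22 in Wf9 against 3.32 to 4.40 elsewhere, and the F-test gave an adjusted p of 0.0576 (limma). B73 replicate 3 had a ratio of 6.04 against 3.59 and 3.56 in the other two RNAs of that line, and on its doubtful array S1 was 19.6 against 74.4 on the partner. Its A1 signal was 4241.6 on the doubtful array and 3277.1 on the partner, so A1 was above the other B73 RNAs on both. Another A1 probe set of the sequence, with the suffix s_at, had a mean of 1680 and differed among lines (adjusted p = 0.0440).

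Across the members the median variation of the ratio between lines was below that of the A1 level and close to that of the S1 level. The difference between the highest and the lowest line mean of the log2 ratio had a median of 0.69, equal to 1.62-fold, and ran from 0.16 to 2.07. It was under 1 in 24 of 31 members. The same difference had a median of 1.07 for the A1 level and 0.68 for the S1 level. Over all pairs the median for the ratio was 0.36, and over pairs bright in A1 only it was 0.64.

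Replicates of a line differed in their ratio by more than arrays of 1 RNA did. The technical SD of the log2 ratio, over the 11 RNAs other than B73 replicate 3, had a median of 0.173 and ran from 0.0704 to 0.302. The SD between replicates of a line had a median of 0.400 and ran from 0.151 to 0.861, above the technical SD in 30 of 31 members. Unlike the technical SD, it includes B73 replicate 3. Without that RNA its median was 0.330 and it ran from 0.134 to 0.872, and the count of 30 was not redone. The SD between line means had a median of 0.332 and was above the SD between replicates in 10 members. For B73 replicate 3 the technical SD of the ratio had a median of 0.545 and reached 2.41 in Zm1Affx.1304.1_at, whose A1 signal was 41.6 on the doubtful array and 496.3 on its partner.

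**Figure D5:**
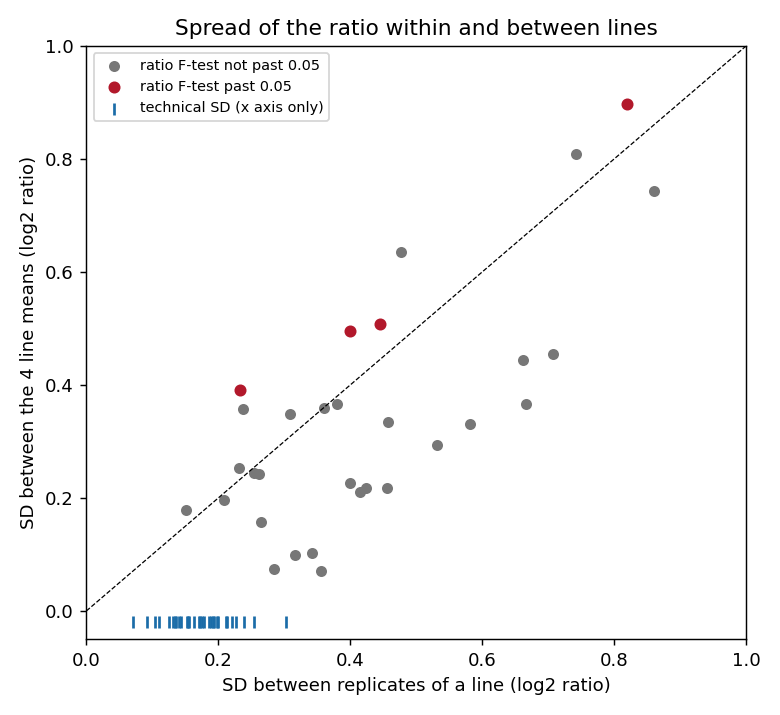
SD of the log2 ratio between replicates of a line (x axis) against the SD between the 4 line means (y axis) for the 31 members, with the technical SDs over 11 RNAs as blue ticks at the bottom and a dashed line of equality. The points lie mostly below the line, the 4 members whose ratio differed among lines (red) lie above it, and the ticks end at 0.302.

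The 2 orientations of a member moved together between RNAs of the same line. The variance of the log2 ratio within lines was smaller than the sum of the variances of its 2 orientations, which is what independent orientations would give, in 25 of 31 members. Its median was 0.424 of that sum, and without B73 replicate 3 it was smaller in 27 members with a median of 0.436. The lowest value was 0.109, in Zm1Affx.1229.1_at, and the highest 1.36, in Zm1Affx.1231.1_x_at. Both orientations were read from the same arrays, so shared array error is part of this measure. In Zm1Affx.687.1_at the A1 level varied little, with a within-line SD of 0.0525, and the S1 level more, with 0.267.

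A few members ran against the common pattern. Zm1Affx.1404.1_at, named after its values were seen, had its highest A1 mean in Wf9, at 1843 ± 507 against 1070 to 1277 in the other lines, and also its highest S1 mean, at 88.2 ± 18.8 against 60.1 to 74.2 (SD, n = 3), and neither level passed (limma F-test, adjusted p = 0.157 and 0.594). Zm1Affx.1037.1_at had A1 signals of 217.5, 145.7 and 378.5 in B73, 492.2, 356.8 and 154.2 in Mo17, 885.3, 453.7 and 483.4 in W23, and 537.9, 590.3 and 386.9 in Wf9. In S1 the signals were 40.1, 30.5 and 20.7 in B73, 72.6, 58.1 and 35.0 in Mo17, 95.3, 49.7 and 69.0 in W23, and 51.5, 72.5 and 40.2 in Wf9. B73 rather than Wf9 was the lowest line there, in both orientations, and neither level passed the F-test over the lines (limma, adjusted p = 0.0669 and 0.0914). The contrast of B73 minus W23 passed in both orientations. Its log2 difference was -1.33 ± 0.40 SE in A1 and -0.90 ± 0.27 in S1 (limma contrasts, adjusted p = 0.0423 and 0.0384). Zm3.3314.1_at, the only member from another clone series of the array, had nearly equal A1 means of 53.4 to 55.2 in the 4 lines, with an adjusted p of 0.992, and S1 means of 220.6 to 310.2. Its S1 level missed the F-test (limma, adjusted p = 0.0800) and passed in the contrast of B73 minus Mo17. That log2 difference was -0.49 ± 0.14 SE (limma contrast, adjusted p = 0.0397).

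The spread of the members over the kinds of pairs on the array is given as counts and was not tested. Of 1123 pairs whose names begin with Zm1Affx 30 were members, of 18 beginning with Zm3 it was 1, and of 105 beginning with Zm1 it was 0. By suffix, 25 of 1132 at pairs, 3 of 36 s_at pairs and 3 of 76 x_at pairs were members. For some members another probe set of the same sequence and orientation gave a lower signal. The S1 probe set of Zm1Affx.687.1 with the suffix at had a mean of 170 and that with s_at 22.6, and for Zm1Affx.1414.1 the corresponding means were 55.7 and 16.9, against the background level of 16.7. For Zm1Affx.153.1 the x_at probe set in S1, at 135.1, was near the at probe set, at 148.8.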

How the data were processed

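The authors deposited 1 table of intensities (probe set signal on a linear scale) for 8475 probe sets on 24 arrays. Named in the submitters' processing notes are MAS5 and GCOS, which are Affymetrix software. A scaling target is not given in the sources used here. On every array the mean signal, trimmed by 2% at each end, was 250.15 to 250.24. Array intensities have no read depth, and the number of arrays limits the precision.

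Arrays were rescaled to 1 trimmed mean, 129 control probe sets were left out, exact zeros were treated as missing and log2(signal + 16) was taken, which understates differences of dim probe sets. The 2 arrays of an RNA were averaged. The 12 RNAs were fitted in limma 3.58.1 (R 4.3.3, lmFit, eBayes with trend) with line as the only term, both for the ratio of the orientations (adjusted over 1246 pairs) and for levels (adjusted over 8346 probe sets), at a threshold of 0.05. Values in single RNAs are means of the deposited linear signal of its arrays, and SDs are over the 3 RNAs of a line. The fit was tested on simulated data.

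The members and marker lists were chosen with earlier results of these data known. Pairs named with all values were those whose ratio passed, the 4 with a ratio nearest to 1, the 3 highest and 3 lowest of the others, those with a gene symbol and the 2 on each side of the threshold. Pairs named beyond these were chosen after their values were seen. Of the 1246 pairs 27 had a symbol in the platform annotation, and coordinates are left out since the array names no genome build. Replicate numbers were checked for pairing by the correlation of deviations from the line means. In 15 of 18 comparisons it was over 0.1, and it was negative in the 3 with W23 replicate 2, so the numbers were not taken to pair the samples.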

Additional observations from a re-analysis of the deposited data

Results flagged for a closer look

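In 4 members the ratio of the orientations differed among lines by the F-test over the 4 lines (limma, Benjamini-Hochberg over 1246 pairs). That test is of all lines at once and not of the differences that follow, whose lines were picked as the extremes. The log2 difference between the highest and the lowest line was 2.07 in Zm1Affx.1231.1_at, 0.91 in Zm1Affx.339.1_at, 1.05 in Zm1Affx.725.1_at and 1.20 in Zm1Affx.808.1_at, with Wf9 at 1 end in each. With 3 RNAs per line, single outlying RNAs were not tested for.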

How the results depend on the processing

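The ratio differences of the 15 named members kept their sign in all 345 values computed under the alternatives. The number of members whose ratio passed, 4 in the limma fit above, was 11 with all 24 arrays fitted and the RNA as a random block, 7 with array weights (whose iteration did not fully converge), 2 with a pseudocount of 1 or of 64 or with dim pairs filtered, and 1 with W23 replicates 2 and 3 averaged. It ran from 0 to 7 when 1 RNA was left out. Over all pairs 250 passed, 113 with a pseudocount of 1, 21 after the filter, and 204 to 290 with 1 RNA left out. With the random block, 21 A1 and 15 S1 levels passed, 12 members passed in both and 7 in neither, and ratio contrasts with Wf9 called 9, 8 and 10 members for B73, Mo17 and W23. With array weights it was 22 A1 and 21 S1 levels, 16 in both, 4 in neither, and 7 for the ratio between W23 and Wf9. With W23 replicates 2 and 3 averaged it was 8 A1 levels, 1 in both and 0 for the ratio between W23 and Wf9. Without array 1 of B73 replicate 3 it was 13 S1 levels, 10 in both and 5 for that ratio. The ratio between B73 and Wf9 called 0 members with a pseudocount of 1 and 2 with 64, that between Mo17 and Wf9 1 with a pseudocount of 1, and that between B73 and Mo17 1 with 64. With 1 RNA left out, 5 to 15 A1 levels, 2 to 13 S1 levels, 0 to 8 members in both, 7 to 12 in 1 orientation and 11 to 24 in neither passed. The ratio contrasts then called 0 to 2 (B73 and Mo17), 0 to 1 (B73 and W23), 0 to 0 (Mo17 and W23), 0 to 5 (B73 and Wf9), 0 to 5 (Mo17 and Wf9) and 0 to 6 members (W23 and Wf9). Probe sets lower in Wf9 numbered 2 to 15 against B73, 4 to 23 against Mo17 and 5 to 24 against W23 with 1 RNA left out. They numbered 19 against B73 with the random block, 21 against B73 and 31 against Mo17 with array weights, and 9 against W23 with its replicates 2 and 3 averaged. Without rescaling they numbered 12, 19 and 21, and after quantile normalization 12, 18 and 22. With the replicate number as a block, 14 S1 levels passed and 6 ratios, that of Zm1Affx.1231.1_x_at among them (adjusted p = 0.0143). A threshold of 25 gave 51 members with 11 ratios called, 100 gave 18 with 2, a minimum of 50 in every RNA gave 16 with 2, and pairs allowed to differ in suffix gave 46 with 7. The cause of these differences was not tested.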
